A study of Zea mays with 6 samples.

Results

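The response of maize leaves to drought at silking was read from 4 of the 6 arrays of the series: the T2 control and the T2 drought array of each of 2 field-grown varieties. DKC6575 carries the insect-resistance event MON810, and Tietar is its near-isogenic non-GM line. All plots were fully irrigated up to the vegetative stage with 6 leaves. From then on the control plot was kept at 100% of field capacity and the drought plot received no irrigation (0%), so that plot and irrigation cannot be told apart. Leaves were taken at the stage with 8 leaves (T1, control plot) and at silking (T2, both plots). There was 1 array per variety and condition, and the sources used here do not say whether an array read a single sample or a pool. The methods describe replicate leaf samples from different micro-plots and, for the PCR assays of the field leaves, pools of plants, without saying which of these went onto the arrays. The 2 T1 control arrays entered the statistical fit, and their values are given as a point of reference. The 2 varieties served as the replicates, so a p-value here sets the mean drought difference of the 2 varieties against a spread. That spread was taken from how unlike the varieties were over all 6 arrays. It was then drawn toward the spread of probe sets of like brightness, so varieties with unlike differences can still pass. The spread holds plant and array together. A plot difference common to both varieties lies in the drought difference and not in that spread.

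A plant short of water makes abscisic acid (ABA), a hormone cut from carotenoids, which closes the stomata and switches on a set of protective genes. Among these are dehydrins and other late embryogenesis abundant (LEA) proteins, which protect membranes and proteins in drying cells, enzymes for compatible solutes such as proline, and small heat shock proteins, which hold unfolding proteins in solution. Transcription factors of the ERF/DREB, NAC and bZIP families and calcium sensors carry much of the signal. Growth, water transport through aquaporins and photosynthesis are known to be cut back in dry leaves, and in maize, a C4 plant, photosynthesis is shared between mesophyll and bundle sheath.

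The values were linear signals, scaled array by array, with a median between 118 and 141 on the 6 arrays, and pairs of values below give DKC6575 first, then Tietar. The defining genes of the labelled tissue were bright: the summed signal of the C4 cycle, light harvesting and photosystem probe sets was between 237224 and 404825 on every array, against 15214 to 19557 for the pollen list. Of the pollen sum, the member DBB11 alone gave 6168 to 7817 on each array, so the sum says little about dimmer members. Profilin 2 read 3.5 and 6.5 at T1, 307 and 170 in the T2 controls and 335 and 200 under drought. Neither the pollen list (0 of 13 tested members changed) nor the list of histones, DNA replication and cell cycle (0 of 45) had a member past the test. The summed signal of the histone and cell cycle list was 24287 and 24690.0 in the T2 controls and 24724 and 26303 under drought. The spiked bacterial controls were dimmer on the drought arrays, with a median log2 of 9.96 against 10.36 in the T2 control of DKC6575 and a smaller gap in Tietar. The log2 ratio of the 3-prime to the 5-prime actin probe set was also lower, at 4.28 and 4.25 against 4.57 and 4.67, and that of cyclophilin at 1.78 and 1.91 against 2.01 and 2.31. The part of these array differences in the drought differences was not tested.

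After 113 control probe sets and 7238 dim ones were left out, 10383 probe sets averaging 6 or more on the log2 scale (a signal of 64) over the 6 arrays were tested for a drought difference common to both varieties. With limma (variety and condition as factors, prior variance allowed to follow brightness, Benjamini-Hochberg adjusted p under 0.05), 120 probe sets were higher under drought (1.16% of those tested) and 98 were lower (0.944%). All 218 moved the same way in both varieties, which a test of the common difference over 2 varieties all but fixes. The common difference was between 0.54 and 3.13 on the log2 scale among those that rose, with a median of 1.04. Among those that fell it was between 0.51 and 2.67, with a median fall of 0.90. The median difference over all probe sets tested was 0.02 in DKC6575 and 0.04 in Tietar, with an SD of 0.31 and 0.47. The difference was larger in Tietar than in DKC6575 for 99 of the 120 that rose and 64 of the 98 that fell, and whether the varieties differed was not tested here.

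These calls rest on the trend in the prior variance, which was chosen with earlier results of these data known. Without it none passed in either direction (smallest adjusted p 0.058), although 1042 risers and 728 fallers had an unadjusted p under 0.05. With the trend those unadjusted counts were 1066 and 853. Single arrays also weighed on the counts, which were 716 and 671 without the DKC6575 T2 control, 168 and 173 without the Tietar T2 control, 332 and 220 without the DKC6575 drought array, 46 and 63 without the Tietar drought array, and 65 with 48 or 49 without a T1 array. An arm left with 1 array is assumed to vary like the others. Counted without any test, a rise of 2-fold or more in both varieties was seen for 48 probe sets (0.462% of those tested) and a fall of that size for 27 (0.260%), and of these 40 and 25 were among the calls. Taken singly, DKC6575 had 70 such rises and 59 such falls, and Tietar 272 and 165. When each array was centred on its own median, which lowers the drought difference by 0.04 in DKC6575 and 0.14 in Tietar, the calls became 164 higher and 225 lower, so the share of calls that rose went from 55.0% to 42.2%.

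**Figure D1:**
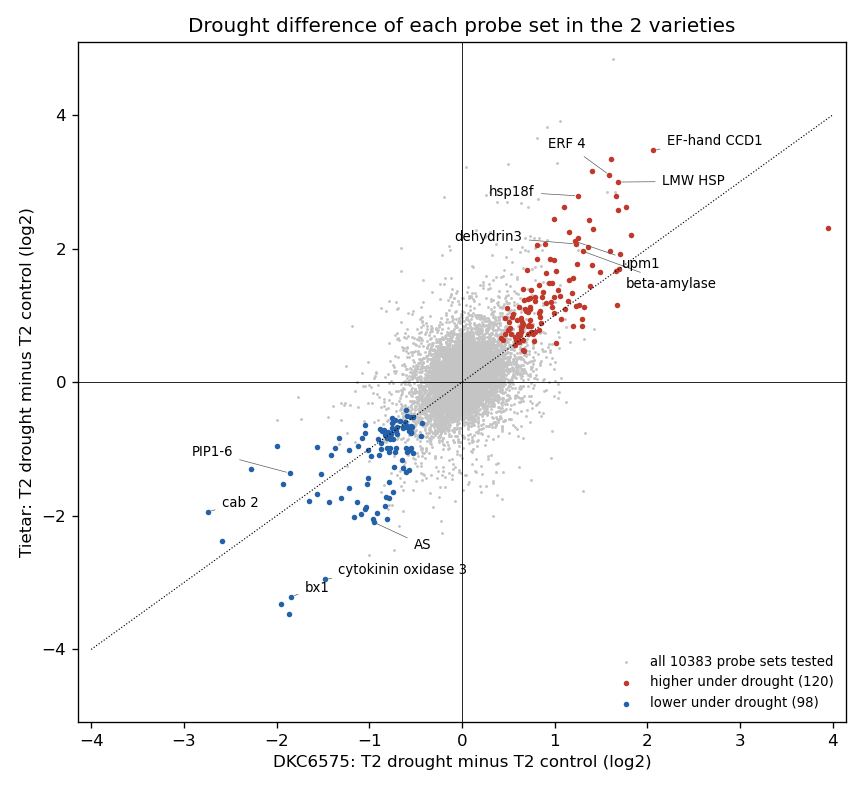
The drought difference (T2 drought minus T2 control, log2) of each of the 10383 probe sets tested in DKC6575 (x axis) and Tietar (y axis), with the 120 probe sets that rose in red, the 98 that fell in blue and the dotted line at equal differences. The coloured points lie in the quadrants where both varieties moved the same way, and many of them lie on the Tietar side of the dotted line.

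A gene name was at hand for 12.7% of the probe sets tested, 36 of the 120 that rose and 33 of the 98 that fell. Part of the names came from a gene table that the study's authors drew up from these same arrays, so having a name was not independent of having changed. The 84 risers and 65 fallers without a name are counted but not described. Of the named ones, those picked by the rule given with the methods are taken below by what they do, and a further 8 risers and 9 fallers are counted only. The counts of list members higher or lower in both varieties are to be read against all probe sets tested, of which 35.0% were higher in both by any amount and 26.9% lower in both. After cyclic loess these shares were 29.7% and 30.8%, and after median centring 38.9% were lower in both. The lists were described by counts and medians only. In leaf tissue as a whole, fewer cells of a type and less RNA per cell cannot be told apart.

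Heat shock proteins of small size had the highest list median in both varieties. All 8 probe sets tested were higher under drought in both varieties, as they were after cyclic loess and after median centring, and 3 of the 8 rose past the test. Their median difference was 0.79 and 1.63 on the log2 scale. The low molecular weight heat shock protein precursor (chromosome 4, 184768121 to 184769306 on the B73 assembly Zm-B73-REFERENCE-NAM-5.0, which also holds for the positions below) had signals of 473 and 463 in the T2 controls and 1527 and 3698 under drought. Both drought arrays lay above all 4 control arrays, the T1 controls included at 847 and 1169. The common rise was 2.34 ± 0.26 (adjusted p = 0.0185), here and below on the log2 scale with its SE. Heat shock protein18f (chromosome 3, 8819932 to 8820870) had 309.6 and 364 in the T2 controls and 738 and 2519 under drought, a rise of 2.02 ± 0.30 (adjusted p = 0.0279). A class I heat shock protein was dimmer, with 84.1 and 84.1 in the T2 controls and 175 and 205 under drought, and rose by 1.17 ± 0.19 (adjusted p = 0.0335). The drought arrays were the higher ones for all 3, and Tietar was the higher of the pair.

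Heat shock protein18a, with 651 and 554 in the T2 controls and 1081 and 2532 under drought, missed the threshold (adjusted p = 0.0604), and so did heat shock protein18c with 64.9 and 90.0 in the T2 controls and 118 and 356 under drought (adjusted p = 0.0924). Members of this family are similar in sequence, and probe sets for near-identical copies may share transcripts. No larger chaperone passed the test. Of 13 probe sets for HSP70, HSP90, HSP101 and their co-chaperones 7 were higher in both varieties and 5 lower in both, and the medians were 0.01 and 0.37. Over the 7 members named by the platform the medians were -0.34 and -0.049, with the sign turned in both varieties. Heat-shock protein 101, which pulls apart protein aggregates, had 439.7 and 403 in the T2 controls and 663 and 1208 under drought (adjusted p = 0.0565). The co-chaperone dnaJ 11 was lower in both, with 1531 and 2237 in the T2 controls and 955 and 504 under drought (adjusted p = 0.0617). None of the 26 probe sets for chaperones of the endoplasmic reticulum passed either, with 14 higher in both and medians of 0.13 and 0.29. Among them calreticulin2, a calcium-binding chaperone, differed by 0.35 and 0.87 (adjusted p = 0.0737).

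Of the 11 probe sets for dehydrins and LEA proteins, 9 were higher in both varieties and 2 rose past the test, with medians of 0.26 and 0.56 (0.64 and 1.31 over the 4 members named by the platform). This list and the ABA list below overlap, since an aba1 probe set (0.37 and 0.56) counts in both. Dehydrin3 (chromosome 4, 159677442 to 159678859) had 51.7 and 35.5 in the T2 controls and 121 and 149 under drought. Its signals were low, the T2 controls being under 64, while the T1 controls (109 and 85.0) lay between the 2 conditions, and the rise was 1.65 ± 0.26 (adjusted p = 0.0309). A second probe set of the same gene, with 53.2 and 56.6 in the T2 controls and 100.2 and 248 under drought, gave a like difference and just missed the threshold (adjusted p = 0.0534). The other member that passed, titled early drought induced protein, was bright, with 973 and 1054 in the T2 controls and 1618 and 2003 under drought, and rose by 0.83 ± 0.10 (adjusted p = 0.0185). Dehydrin COR410 had 363 and 264 in the T2 controls and 396 and 874 under drought, with the arrays close in DKC6575 and apart in Tietar (adjusted p = 0.197).

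Dehydrin1, which the study used as its marker of stress, was too dim to be tested. Its probe set read 23.6 and 45.1 in the T2 controls and 33.8 and 97.7 under drought, with 18.5 and 16.1 at T1, so that 1 of the 6 signals was above 64. The 2 drought signals were above the control signals of their own varieties, but the DKC6575 drought array lay below the Tietar control. Dehydrin 13 was as dim, at 60.5 and 39.9 in the T2 controls and 95.8 and 53.7 under drought.

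Of the 9 probe sets tested for ABA synthesis and signalling, 7 were higher in both varieties (5 after median centring), 2 rose past the test, and the medians were 0.16 and 0.43. A protein phosphatase 2C, of a family that includes brakes on ABA signalling, had 401 and 366 in the T2 controls and 659 and 773 under drought and rose by 0.90 ± 0.14 (adjusted p = 0.0297). The abscisic stress protein homolog had 2809 and 2615 in the T2 controls and 4094 and 5141 under drought and rose by 0.76 ± 0.14 (adjusted p = 0.0489). Viviparous14, the dioxygenase that cuts carotenoids in the limiting step of ABA synthesis, had 116 and 118 in the T2 controls and 129 and 199.6 under drought (adjusted p = 0.294).

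Before and after that step in the pathway 2 further genes passed. Phytoene synthase 2 (chromosome 8, 174806522 to 174809159), the entry enzyme of the carotenoid pathway, had 776 and 687 in the T2 controls and 1224 and 1258 under drought, with all 4 T2 signals below the T1 controls (1706 and 1491), and rose by 0.77 ± 0.10 (adjusted p = 0.0210). It was the 1 member of the 17 tested for chlorophyll, carotenoid and isoprenoid synthesis that passed. The molybdenum cofactor sulfurase, whose Arabidopsis counterpart activates the aldehyde oxidase of the last ABA step, had 160.0 and 130.0 in the T2 controls and 312 and 298 under drought and rose by 1.08 ± 0.16 (adjusted p = 0.0256). Both drought arrays lay above all 4 control arrays, the T1 signals being 169 and 175.

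**Figure D2:**
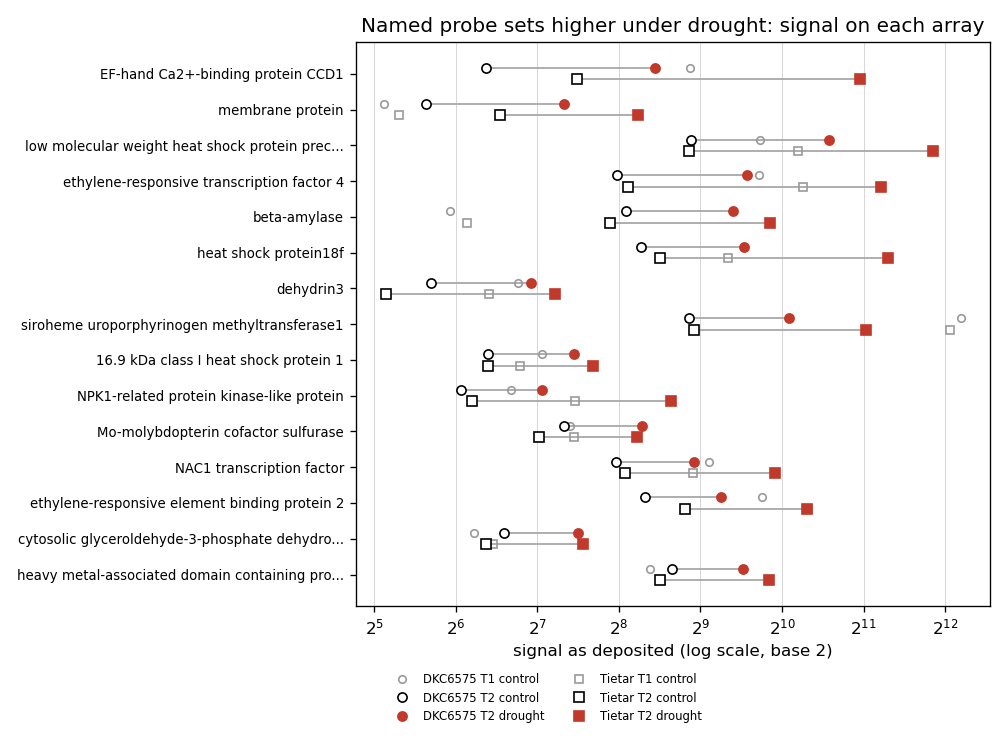
Signals as deposited (log scale) of the 15 named probe sets with the largest rise shared by both varieties, with circles for DKC6575 and squares for Tietar, open grey for T1 control, open black for T2 control and filled red for T2 drought. In each row a grey line joins the T2 control and T2 drought signals of a variety, for example 83.0 and 348 for the EF-hand protein in DKC6575, and the Tietar T1 point of that protein (1982) is hidden by its drought point (1994).

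Among the named genes the calcium-binding EF-hand protein CCD1 had the largest rise shared by both varieties. Its signals were 83.0 and 179 in the T2 controls and 348 and 1994 under drought, with 468 and 1982 at T1. Each drought array was far above the T2 control of its variety and near the T1 level, and the common rise was 2.77 ± 0.29 (adjusted p = 0.0161). Of the 27 probe sets for calcium sensors and kinases 16 were higher in both varieties (13 after loess) and 3 in both lower, 3 rose, and the medians were 0.26 and 0.15. Calmodulin-like protein 1, with 833 and 817 in the T2 controls and 1341 and 1708 under drought, rose by 0.88 ± 0.11 (adjusted p = 0.0200). A CIPK-like kinase, of the family that works with calcineurin B-like calcium sensors, had 3695 and 3581 in the T2 controls and 5489.7 and 5278 under drought and rose by 0.57 ± 0.09 (adjusted p = 0.0305). Grancalcin, with 81.3 and 47.5 in the T2 controls and 114 and 455 under drought, did not pass (adjusted p = 0.159), its Tietar control being under 64. A kinase titled as related to NPK1, a kinase at the head of a mitogen-activated cascade in tobacco, had 67.1 and 73.5 in the T2 controls and 134 and 399 under drought and rose by 1.72 ± 0.32 (adjusted p = 0.0460).

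Ethylene-responsive transcription factor 4 was the named transcription factor with the largest shared rise. It had 253 and 277 in the T2 controls and 762 and 2376 under drought, with 844 and 1222 at T1, and rose by 2.35 ± 0.31 (adjusted p = 0.0200). Of the 6 ERF and DREB probe sets 4 were higher in both varieties and 2 rose, the second being ethylene-responsive element binding protein 2 with 319 and 449.9 in the T2 controls and 611 and 1262 under drought, a rise of 1.21 ± 0.15 (adjusted p = 0.0185). DRE binding factor 1, of the group that binds the dehydration-responsive element, had 165 and 215 in the T2 controls and 249.9 and 481 under drought (adjusted p = 0.0662), and EREBP-4 like protein had the opposite sign, with 196 and 154 in the T2 controls and 102 and 102 under drought (adjusted p = 0.145).

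NAC1, with 250.3 and 269 in the T2 controls and 483 and 962 under drought, rose by 1.39 ± 0.25 (adjusted p = 0.0453), and was 1 of 3 tested in the NAC and WRKY list. Of the 10 bZIP probe sets 6 were lower in both varieties and 1 fell past the test. That member, lip15, a factor known as cold-induced in maize, had 2987 and 2827 in the T2 controls and 2218 and 1861 under drought and fell by 0.52 ± 0.09 (adjusted p = 0.0453). None of the 14 homeobox and MADS or the 4 MYB probe sets passed. The homeobox-leucine zipper protein with the largest shared difference of the former list had 90.2 and 87.3 in the T2 controls and 162 and 362 under drought (adjusted p = 0.0670).

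In carbon metabolism, both probe sets titled beta-amylase, the enzyme that frees maltose from starch, passed the test. The dimmer of them had 272 and 237 in the T2 controls and 673 and 924 under drought and only 61.1 and 70.5 at T1, a rise of 1.63 ± 0.18 (adjusted p = 0.0185). The brighter had 1480.2 and 1669 in the T2 controls and 2558 and 2802 under drought and rose by 0.77 ± 0.10 (adjusted p = 0.0185), with nearly equal differences in the 2 varieties (0.79 and 0.75). The other 9 of the 11 starch probe sets did not pass, among them starch branching enzyme1 (0.30 and 0.31). The median of the list in Tietar was 0.13, and -0.40 over the 7 members named by the platform.

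Of 13 probe sets for sucrose and related sugars 1 rose and 1 fell. Fructokinase frk1 had 574 and 569 in the T2 controls and 819.8 and 1001 under drought and rose by 0.66 ± 0.12 (adjusted p = 0.0426). Sucrose transport protein 4, which moves sucrose across membranes, had 619 and 622 in the T2 controls and 361 and 352 under drought and fell by 0.80 ± 0.14 (adjusted p = 0.0366). Invertase2, which splits sucrose, had 115 and 52.3 in the T2 controls and 161 and 341 under drought (adjusted p = 0.123). In glycolysis the cytosolic GAPDH GAPC4 had 96.6 and 83.0 in the T2 controls and 181 and 188 under drought and rose by 1.04 ± 0.20 (adjusted p = 0.0496), the 1 of 22 tested members of its list to pass.

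Of the 8 probe sets for proline, choline and betaine synthesis 1 rose and 1 fell. A probe set for delta 1-pyrroline-5-carboxylate synthetase, the limiting enzyme of proline synthesis, had 690.1 and 717 in the T2 controls and 1146 and 1530.2 under drought and rose by 0.91 ± 0.13 (adjusted p = 0.0262). A second synthetase, p5cs, had 167 and 170.3 in the T2 controls and 267 and 359 under drought and missed the threshold (adjusted p = 0.0828). PEAMT, the phosphoethanolamine methyltransferase on the way to choline and glycine betaine, had 325 and 236 in the T2 controls and 126 and 119 under drought and fell by 1.17 ± 0.16 (adjusted p = 0.0214). Another probe set titled phosphoethanolamine N-methyltransferase differed by 0.39 and 0.82 (adjusted p = 0.130). In all, 6 members of this list were higher in both varieties and 1 was lower.

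In nitrogen assimilation 1 of 13 members rose and 1 fell. Siroheme uroporphyrinogen methyltransferase1 (chromosome 3, 222078417 to 222082354), which builds the siroheme group of nitrite and sulfite reductase, had 465 and 484 in the T2 controls and 1085 and 2091 under drought. All 4 T2 signals were below those at T1 (4694 and 4256), and within T2 the rise was 1.67 ± 0.23 (adjusted p = 0.0234). Asparagine synthetase (AS, chromosome 9, 34625511 to 34634732), which makes a transport form of nitrogen, had 7441 and 10031 in the T2 controls and 3846 and 2347 under drought, with 2958 and 3879.6 at T1. It fell by 1.52 ± 0.26 (adjusted p = 0.0366), and the Tietar drought array was the lowest of the 6.

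**Figure D3:**
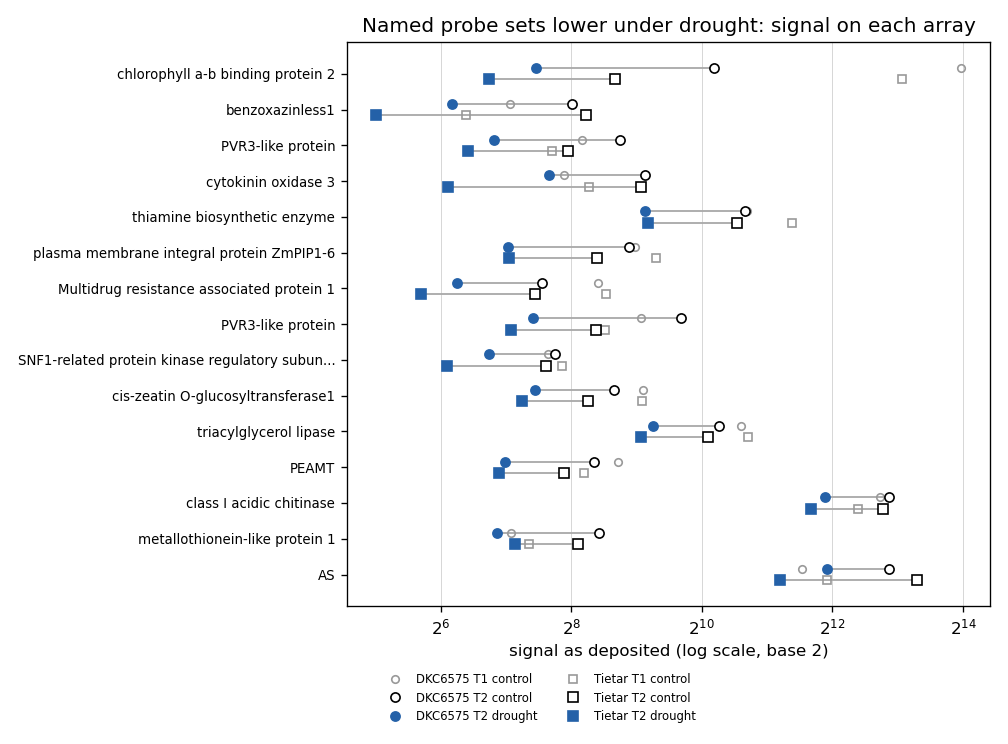
Signals as deposited (log scale) of the 15 named probe sets with the largest fall shared by both varieties, with circles for DKC6575 and squares for Tietar, open grey for T1 control, open black for T2 control and filled blue for T2 drought. The filled points lie to the left of the open black ones in every row, and chlorophyll a-b binding protein 2 also stands out for its T1 signals of 15988 and 8584.

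In light harvesting 1 of 14 tested probe sets fell past the test, although 13 of the 14 were lower in both varieties. That 1 was chlorophyll a-b binding protein 2, an antenna protein, with 1169 and 408 in the T2 controls and 175 and 107 under drought. Its T1 signals were 15988 and 8584, so the drought arrays were the lowest of a series that was already far lower in the T2 controls than at T1, and under drought it fell by 2.34 ± 0.18 (adjusted p = 0.0119). The other 13 members were far brighter, and none of them passed. Lhcb5 had 16466 and 18673 in the T2 controls and 13464 and 12060.2 under drought (adjusted p = 0.124), and the photosystem I subunit psad1 had 9844 and 9993 in the T2 controls and 7514 and 6399 under drought (adjusted p = 0.0702).

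The list medians were -0.24 and -0.58, but bright probe sets as a class were also lower on the drought arrays. Over the 621 probe sets with a mean log2 of at least 12 the medians were -0.13 and -0.28. After cyclic loess, which evens out such a dependence on brightness, the medians of that class were -0.03 and -0.06 and those of the light harvesting list -0.10 and -0.27, with 13 of 14 members still lower in both. Among the 14 probe sets of the C4 cycle 9 were lower in both, with medians of -0.16 and -0.55 (-0.03 and -0.29 after loess), and none fell past the test. Phosphoenolpyruvate carboxylase pep1, the enzyme of the first carbon fixation in C4 leaves, had 18104 and 24718 in the T2 controls and 15679 and 13901 under drought (adjusted p = 0.155).

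The kinase PPCK1 (chromosome 5, 223123886 to 223125340), which phosphorylates phosphoenolpyruvate carboxylase and makes it less open to inhibition by malate, was the 1 member of the C4 list that passed. It had 3435 and 5186 in the T2 controls and 6939 and 7766 under drought, with 4001 and 4050.2 at T1, and rose by 0.80 ± 0.14 (adjusted p = 0.0426). In the Calvin cycle and photorespiration list none of 8 passed. The small subunit of Rubisco (rbcS) had 11177 and 13329 in the T2 controls and 9574 and 8851 under drought (adjusted p = 0.148).

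**Figure D4:**
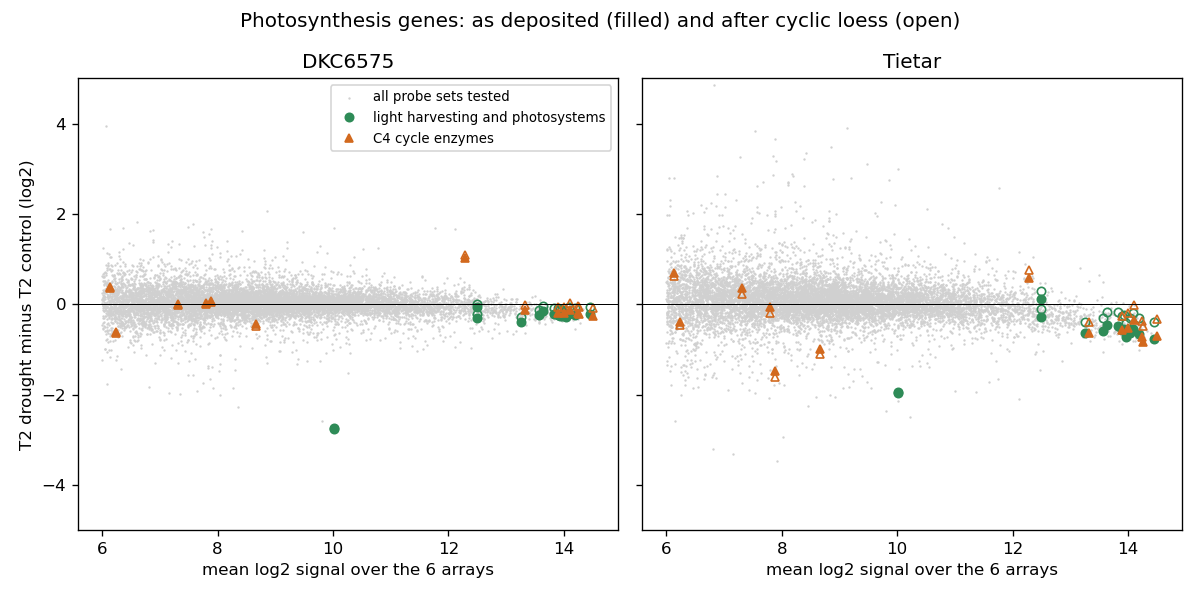
The drought difference (log2) against the mean log2 signal over the 6 arrays, in DKC6575 (left) and Tietar (right), for all probe sets tested (grey), light harvesting and photosystems (green circles) and C4 cycle enzymes (orange triangles), as deposited (filled) and after cyclic loess (open). Most bright members at the right edge lie below 0 as deposited and nearer to 0 after loess, with 1 pgr5 probe set (0.11 in Tietar as deposited, 0.30 after loess) as an exception, while the antenna protein at the lower middle (-2.74 and -1.94 as deposited) and PPCK1 above 0 stay on their side of 0.

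Among the water channels 2 genes fell. Of 24 aquaporin probe sets 10 were lower in both varieties (13 after median centring), 7 were higher in both, and none rose past the test. PIP1-6 (chromosome 9, 7776028 to 7777383), an aquaporin of the plasma membrane, had 473 and 338 in the T2 controls and 130.4 and 132 under drought, with 505 and 626 at T1. The 2 drought arrays were nearly equal and far below all 4 controls, and the gene fell by 1.61 ± 0.19 (adjusted p = 0.0185). A second plasma membrane intrinsic protein (chromosome 2, 29372604 to 29374823) had 781 and 727 in the T2 controls and 379 and 428 under drought and fell by 0.90 ± 0.13 (adjusted p = 0.0256). The abundant PIP2-1 had 4164 and 4757 in the T2 controls and 4005 and 4267 under drought (adjusted p = 0.593), and the probe set named plasma membrane intrinsic protein2 was higher in both, with 171 and 110.4 in the T2 controls and 259 and 323 under drought (adjusted p = 0.0733).

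Of the 17 probe sets for cytokinin, a hormone that keeps leaves green and cells dividing, 3 fell past the test and none rose. In all 9 were lower in both varieties (10 after loess) and 1 was higher in both, with medians of -0.38 and -0.12. Cytokinin oxidase 3 (chromosome 8, 165399243 to 165401883), which breaks the hormone down, had 561 and 535 in the T2 controls and 202 and 69.3 under drought and fell by 2.21 ± 0.40 (adjusted p = 0.0426). A second probe set for the same gene was less changed, with 1129.9 and 828 in the T2 controls and 716 and 663 under drought (adjusted p = 0.0940). The cis-zeatin O-glucosyltransferase1, which stores cytokinin as a glucoside, had 405 and 307 in the T2 controls and 174 and 152 under drought and fell by 1.12 ± 0.14 (adjusted p = 0.0185). Response regulator RR6, of a class that cytokinin induces, had nearly the same signals in both varieties, 1049 and 1044 in the T2 controls and 675 and 652 under drought, and fell by 0.66 ± 0.10 (adjusted p = 0.0273). Response regulator 7 had 423 and 289.7 in the T2 controls and 169 and 152 under drought and just missed the threshold (adjusted p = 0.0534).

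Of 9 auxin probe sets 5 were lower in both varieties and 1 fell, with medians of -0.38 and -0.31. It was an indole-3-acetate beta-glucosyltransferase, an enzyme that conjugates auxin, with 381 and 323 in the T2 controls and 222 and 163 under drought, and fell by 0.88 ± 0.13 (adjusted p = 0.0294). Another probe set with that title differed by 0.22 and 0.46 (adjusted p = 0.177). In the jasmonate list 4 of 11 were higher in both varieties and 5 lower in both, and 1 fell past the test. It was a 12-oxo-phytodienoic acid reductase, with 1192 and 1288 in the T2 controls and 719 and 532 under drought, and fell by 1.00 ± 0.16 (adjusted p = 0.0323). A further probe set with the same title was higher in both, by 0.77 and 0.87 (adjusted p = 0.0852). The ZIM motif family protein was also higher in both, by 1.03 and 3.29 (adjusted p = 0.0632). None of the 6 gibberellin and brassinosteroid or the 3 ethylene synthesis probe sets passed.

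Among the genes of the defence lists (benzoxazinoid pathway, and pathogenesis-related proteins with proteinase inhibitors) 2 fell. Benzoxazinless1 (bx1, chromosome 4, 4107004 to 4108565), which opens the pathway to the maize defence compounds DIMBOA and its relatives, had 259 and 299 in the T2 controls and 72.2 and 32.3 under drought, with 134 and 83.9 at T1. It fell by 2.53 ± 0.31 (adjusted p = 0.0185), and with the Tietar drought signal under 64 its size there is less exact. None of the other 4 probe sets of the pathway passed. The indole synthase igl1 had 231 and 217 in the T2 controls and 229 and 251 under drought, and the hydroxylase bx6 had 1394 and 1172 in the T2 controls and 1184 and 1719 under drought in the brighter of its 2 probe sets. The beta-D-glucosidase precursor, of the enzymes that free the active compound from its glucoside, had 315 and 83.8 in the T2 controls and 275 and 575 under drought (adjusted p = 0.284), and glu1 was too dim to test. The class I acidic chitinase (chromosome 5, 65158913 to 65160222), an enzyme that cuts fungal cell walls, had 7453 and 7027 in the T2 controls and 3779.7 and 3261 under drought, and fell by 1.04 ± 0.10 (adjusted p = 0.0119). In its list of 15 pathogenesis-related proteins and proteinase inhibitors 9 were higher in both varieties and it was the 1 that passed. Members of this list also mark wounded or infected tissue. Its summed signal was 15983 and 15287 in the T2 controls and 11774 and 12821 under drought. That sum includes the chitinase, which makes up a large part of it. It is therefore no separate measure to set beside the chitinase difference, and the other members were not summed apart.

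Of the 10 probe sets for metal binding 1 rose and 1 fell. Metallothionein-like protein 1 had 343 and 276 in the T2 controls and 116 and 141 under drought and fell by 1.27 ± 0.19 (adjusted p = 0.0297), with T1 signals (135 and 164) near those under drought. A metallothionein-like protein of type 2 had 3307 and 3208 in the T2 controls and 4550.3 and 5302 under drought and rose by 0.59 ± 0.10 (adjusted p = 0.0371). The ferritin fer2, an iron store, had 1449.7 and 1323 in the T2 controls and 979 and 768 under drought (adjusted p = 0.0584). A further riser, titled heavy metal-associated domain containing protein, had 400.4 and 362 in the T2 controls and 733 and 919 under drought, a rise of 1.11 ± 0.14 (adjusted p = 0.0185).

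In the defence against oxidants, catalase CAT3 (chromosome 4, 248819773 to 248821797), which breaks down hydrogen peroxide, had 8487 and 8779.7 in the T2 controls and 5896 and 4203 under drought and fell by 0.79 ± 0.15 (adjusted p = 0.0460). It was the 1 of 10 in its list to pass. Of 27 glutathione transferases, which couple glutathione to toxic compounds, 13 were higher in both varieties and 2 rose. These were gst19 and gst5. The former had 1068 and 824 in the T2 controls and 1562 and 1677 under drought and rose by 0.79 ± 0.13 (adjusted p = 0.0368). The latter had 2718 and 3185 in the T2 controls and 4118 and 6061 under drought and rose by 0.76 ± 0.13 (adjusted p = 0.0370).

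Of the remaining named fallers by the same ranking, the thiamine biosynthetic enzyme (chromosome 8, 141784511 to 141785889), which makes the thiazole part of vitamin B1, had 1612 and 1494 in the T2 controls and 563 and 577 under drought and fell by 1.45 ± 0.18 (adjusted p = 0.0185). The PVR3-like protein was read by 2 probe sets that agreed in direction and size, with 428 and 246 in the T2 controls and 113 and 85.9 under drought in the one, and 821 and 331 in the T2 controls and 170.1 and 135 under drought in the other, and by the first it fell by 1.72 ± 0.16 (adjusted p = 0.0119). Both were lowest on the drought arrays. Multidrug resistance associated protein 1, an ABC transporter, had 188 and 174 in the T2 controls and 76.0 and 52.1 under drought and fell by 1.52 ± 0.20 (adjusted p = 0.0200). A regulatory subunit of the SNF1-related kinase, which senses low energy, had 216 and 196 in the T2 controls and 106 and 68.4 under drought and fell by 1.27 ± 0.22 (adjusted p = 0.0390). A triacylglycerol lipase had 1230.3 and 1087 in the T2 controls and 610.3 and 539 under drought, the same difference in both varieties, and fell by 1.01 ± 0.11 (adjusted p = 0.0182). In each of these the 2 drought arrays were below all 4 controls. A riser titled membrane protein had 49.7 and 93.2 in the T2 controls and 161 and 302 under drought and rose by 1.70 ± 0.26 (adjusted p = 0.0285). Its control signals were low, with 34.9 and 39.3 at T1, and only the Tietar T2 control was above 64. With signals under 64 set to 64, its difference was 1.33 in DKC6575 and 1.70 in Tietar, so its size in DKC6575 is less exact. In the list of senescence proteases and cystatins 2 of 22 fell, senescence-associated protein DIN1 (473 and 459 in the T2 controls and 289.5 and 232 under drought) and a subtilisin-like protease (272 and 228 in the T2 controls and 150.3 and 137 under drought).

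**Figure D5:**
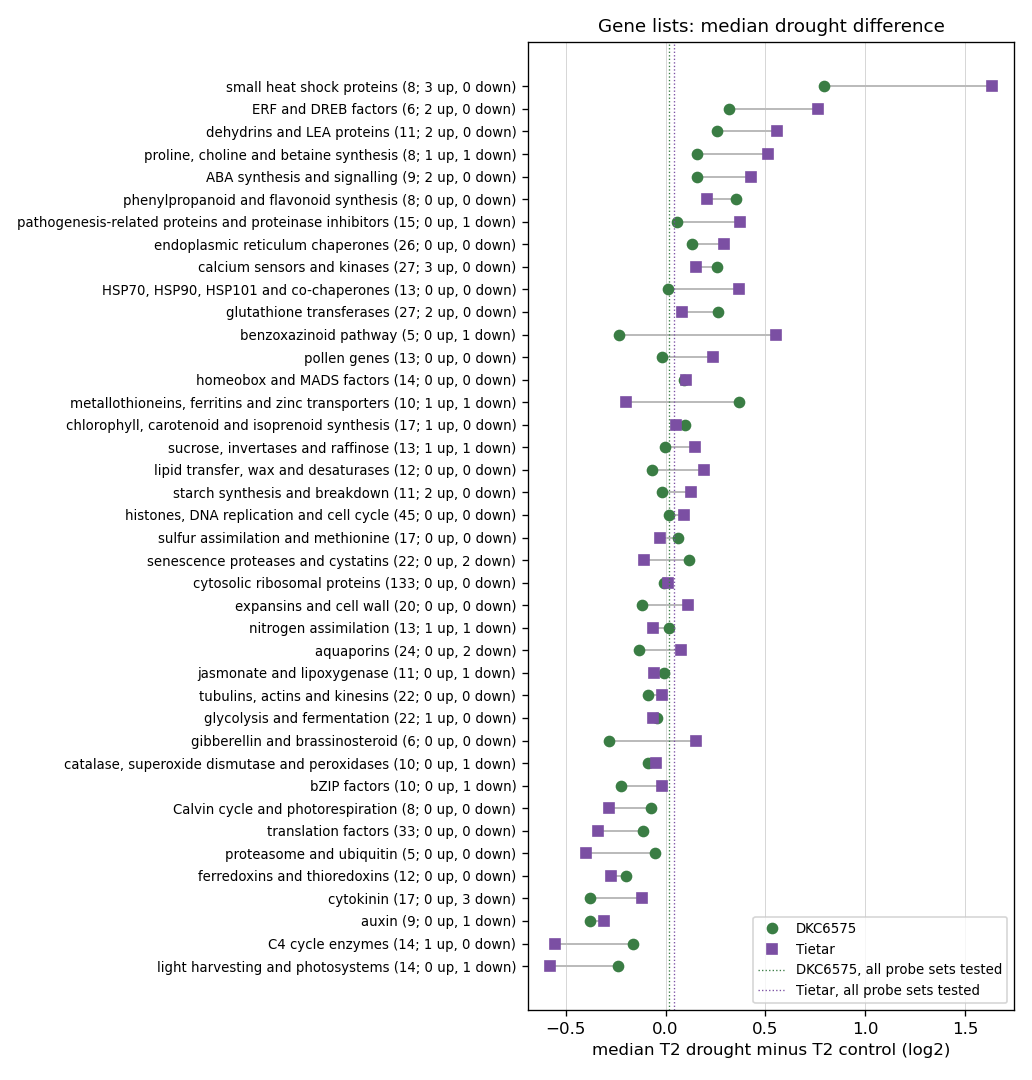
Median drought difference (log2) of the members tested in each of the 40 gene lists with at least 5 of them, in DKC6575 (green circles) and Tietar (purple squares), with the number tested and the numbers past the test in each direction beside the name and the medians over all probe sets tested as dotted lines (0.02 and 0.04). Small heat shock proteins lie farthest to the right (0.79 and 1.63) and the light harvesting list has the lowest median in Tietar (-0.58).

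Much of the basic machinery of the cell showed no member past the test, which does not show that it was unchanged. Of 133 probe sets for cytosolic ribosomal proteins none passed, 34 were higher in both varieties and 36 lower (13 and 56 after median centring, which also raises the share lower in both over all probe sets from 26.9% to 38.9%), and the medians were -0.01 and 0.01. None of 33 translation factors passed, though 21 were lower in both (19 after loess), with medians of -0.11 and -0.34 (-0.061 and -0.20 after loess). Among them an elongation factor 1 alpha had 4349 and 5214 in the T2 controls and 3763 and 4125 under drought (adjusted p = 0.187). The 45 histone, replication and cell cycle probe sets had 20 higher in both varieties and 14 lower (11 and 18 after median centring), with medians of 0.02 and 0.09. Of the 20 for expansins and cell wall none passed, with a xyloglucan endotransglucosylase at 39.2 and 43.2 in the T2 controls and 63.0 and 169.9 under drought (adjusted p = 0.0882) as the member with the largest shared difference. In all, 19 of the 45 lists had no member past the test, and over all lists 24 of the 725 distinct members rose (3.31%) and 19 fell (2.62%). Over all named probe sets tested the shares were 2.72% and 2.50%, and over all probe sets 1.16% and 0.944%.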

How the data were processed

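Leaf RNA of field-grown maize was read on Affymetrix maize arrays, 1 array per variety and condition. The authors deposited linear intensity values per probe set, scaled so that each array's mean, after 2% of the values at each end were trimmed, was about the same. The methods name RMA, but the deposited intensities were neither on a log scale nor quantile-normalised, so they were taken as given and converted to log2. Partek is named in the submitters' processing notes. Of 17734 probe sets, 113 controls and 7238 with a mean log2 under 6 (a signal of 64) over the 6 arrays were left out.

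The common drought effect was the T2 drought minus T2 control coefficient of a limma 3.58.1 fit (R 4.3.3) with condition and variety over the 6 arrays. It had 2 residual degrees of freedom, and eBayes with an intensity trend added a prior of 5.2. P-values were Benjamini-Hochberg adjusted over 10383 probe sets and called at 0.05. Arrays were paired by variety, which the labels give and which is the replicate block of the main fit. An exact permutation test of 2 arrays against 2 could not go below p = 0.333 (two-sided). Tables and plots were made with Python 3.11.15, numpy 2.4.6, pandas 2.3.3, scipy 1.17.1 and matplotlib 3.10.9. The limma step was tested on simulated data with known changes. Their noise was drawn from the fitted trend, so that test cannot check the trend itself.

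Names came from the platform annotation (1452 probe sets with 1 symbol, 1377 gene IDs found in RefSeq's Zm-B73-REFERENCE-NAM-5.0 table) and from titles in the authors' supplementary table (2012 probe sets), which was drawn up from these arrays, 2013 in all. Of the 725 list members tested, 337 had only such a title, so their naming is not independent of their change. The text names, in each direction, the 15 called probe sets with the largest smaller difference of the 2 varieties, up to 4 members of each list moving the same way in both, the dehydrins and the benzoxazinoid enzymes. Further members named in the text (heat shock protein18a, viviparous14, pep1, PIP2-1 and the second probe set of cytokinin oxidase 3) were chosen after their values were seen. Members, lists and the intensity trend of the fit were chosen with earlier results of these data known. Alternatives were other scalings (cyclic loess, quantile, median centring), filters, a floor at 64, folds of 1.5 and 3, 1 probe set per gene, the T2 arrays only, no variety term, no trend, and each array left out. Promoter sequences were not analysed here.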

Additional observations from a re-analysis of the deposited data

Results flagged for a closer look

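Some values pointed opposite ways in the 2 varieties. With 1 array per variety and condition, the difference between varieties was not tested for any of them. Over all probe sets tested, 61.9% moved the same way in both varieties and the rest did not. Among the tested probe sets named above, 4 are of this kind, all in the benzoxazinoid pathway. Its enzymes and the dehydrins were named whatever their sign, while the ranked genes had to move the same way in both. The 4 therefore do not set this pathway apart. The beta-D-glucosidase precursor differed by 2.78 on the log2 scale in Tietar and by -0.20 in DKC6575. The hydroxylase bx6 differed by 0.55 in Tietar and -0.24 in DKC6575 on one probe set and by 0.79 and -0.37 on the other. The indole-forming enzyme igl1 differed by 0.21 in Tietar and -0.01 in DKC6575.

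The medians of 14 gene lists also had opposite signs as deposited, and most lay near 0. Of these 14, 8 had opposite signs after cyclic loess, 9 after median centring (tried after seeing the data) and 7 of the 13 with a value over members named by the platform. Median centring put aquaporins, expansins and cell wall, starch, ribosomal proteins and nitrogen assimilation below 0 in both varieties, and over platform-named members the metallothionein list was at -0.57 in DKC6575 and -0.16 in Tietar. The values below are as deposited. Those above 0 in Tietar (given first) and below 0 in DKC6575 were the benzoxazinoid pathway (0.55 and -0.24), pollen genes (0.24 and -0.02), lipid transfer, wax and desaturases (0.19 and -0.07), gibberellin and brassinosteroid (0.15 and -0.29), sucrose, invertases and raffinose (0.15 in Tietar, just below 0 in DKC6575), starch (0.13 and -0.02), expansins and cell wall (0.11 and -0.12), aquaporins (0.078 and -0.13) and cytosolic ribosomal proteins (0.012 and -0.0097). Those below 0 in Tietar and above 0 in DKC6575 were ethylene synthesis (-0.21 and 0.16), metallothioneins, ferritins and zinc transporters (-0.20 and 0.36), senescence proteases and cystatins (-0.11 and 0.12), nitrogen assimilation (-0.062 and 0.019) and sulfur assimilation (-0.026 and 0.062).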

How the results depend on the processing

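Counts of probe sets higher and lower under drought (120 and 98) moved with the test. Without the trend there were 0 and 0, and likewise with no filter and no trend (823 and 779 at an unadjusted p under 0.05) and with the 4 T2 arrays and no trend (805 and 554), both of these chosen after seeing the data. With the trend the 4 T2 arrays gave 74 and 54, and the fit without the variety pairing (no replicate block) 80 and 56. A mean log2 of at least 8, which tests fewer probe sets, gave 78 and 74, no filter 97 and 85, and median centring 164 and 225. Leaving out 1 array gave 46 to 716 higher and 48 to 671 lower. Except for the filters, the cause was not tested. Of the 69 named probe sets that passed, none changed sign under any alternative. All 69 passed after loess and median centring, 44 with the 4 T2 arrays, 45 without the pairing, 0 without the trend, 36 without the Tietar drought array and 41 or 40 without a T1 array. With members named by the platform only, 28 list medians moved by more than the spread between the varieties and 54 did not. The counts of 2-fold differences in both varieties (48 higher, 27 lower) became 178 and 125 at 1.5-fold, 15 and 6 at 3-fold, 358 and 368 with no filter, and 18 and 13 at a mean log2 of at least 8. With 1 array per variety and condition, the number of arrays limits the precision, and signals under 64 give the least exact differences.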
